A study of Rattus norvegicus with 138 samples.

Results

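The 6 genes Edn1, Edn3, Ednra, Ednrb, Ece1 and Ece2 make up the endothelin system described here, chosen by name as the ligands, receptors and converting enzymes of this peptide family. They are 6 of the 32883 genes in the count tables, and all 6 passed the filter on low counts in each brainstem region. RNA was sequenced from tissue punches of the nucleus of the solitary tract (NTS), the caudal ventrolateral medulla (CVLM) and the rostral ventrolateral medulla (RVLM) of 46 female rats, each rat giving 1 library per region. The spontaneously hypertensive rat (SHR), an inbred strain that develops hypertension with age, was compared with the normotensive Wistar–Kyoto (WKY) rat at 5 ages. There were 5 WKY rats and 5 SHRs of 8 wk, 4 and 5 of 10 wk, 3 and 6 of 12 wk, 3 and 6 of 16 wk, and 3 and 6 of 24 wk. The labels name no treatment, and the strains differ across the genome, so that a strain difference here is a difference between a pair of inbred stocks. All values below come from whole tissue, where fewer cells of a type and less RNA per cell cannot be told apart.

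Endothelins are short peptides that are cut from larger precursors. The endothelin-converting enzymes Ece1 and Ece2 are membrane metalloproteases that perform the last cut. Edn1, the precursor gene of the classic vasoconstrictor peptide, is made mainly by endothelial cells, and Edn3 encodes a related ligand that acts mostly through the B receptor. The receptors are G protein-coupled. Ednra, the A receptor, is known from vascular smooth muscle and pericytes, where it raises calcium and contracts the vessel, and Ednrb, the B receptor, is abundant in astrocytes and also found in endothelium. Endothelin peptides given into the brainstem are known to alter sympathetic outflow and blood pressure, which is why the family is of interest in these nuclei.

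Edn1 is regulated largely through its promoter, and Ednra is the member called between strains for the mean over ages, so the bases upstream of both starts are shown, from RefSeq on build GRCr8. The counts themselves were made on another build. Of the 6 members, 5 had an entry in the promoter table and Edn3 did not. A script searched the 250 bases before each start, on both strands, for TATAAA (the TATA box), TTATCT (the reverse complement of a GATA motif) and TGACTNA (an AP-1 motif), and matches are in capitals. The Edn1 stretch runs on the minus strand at chr17:22666792-22666937 and ends with the TATA box, and the Ednra stretch runs on the plus strand at chr19:47137674-47137923 up to the start.
Edn1: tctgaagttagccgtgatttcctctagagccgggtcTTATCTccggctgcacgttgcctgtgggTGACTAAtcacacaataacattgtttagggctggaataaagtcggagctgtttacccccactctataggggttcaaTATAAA
Ednra: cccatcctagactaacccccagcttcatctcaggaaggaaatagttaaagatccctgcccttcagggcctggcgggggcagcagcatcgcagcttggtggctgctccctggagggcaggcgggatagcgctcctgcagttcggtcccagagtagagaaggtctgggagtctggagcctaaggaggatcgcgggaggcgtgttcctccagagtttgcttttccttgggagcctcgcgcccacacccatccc
Edn1 had 1 match to each motif, beginning 214 bases (GATA), 186 bases (AP-1) and 110 bases (TATA) before the annotated start. The windows of Ednra, Ednrb, Ece1 and Ece2 held no match to these letters, which says nothing about the factors. Over 33469 promoters of the same length, 12.9% held TATAAA, 10.3% TTATCT and 11.5% TGACTNA.

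The libraries held 5904581 to 17889417 counts assigned to genes, with a median of 10143036. The name of each library ends in the number 1 or 2, whose meaning is not given in the sources used here. All 10 wk libraries carry the number 2, and their median totals, over the 3 regions, were 15640797 in WKY rats and 14488194 in SHRs, while the medians at the other ages ran from 8903877 to 10732761. Within the 10 wk libraries the number and the depth therefore cannot be told apart from the age. Outside that age the number 2 is carried by WKY replicates 3, 4 and 5 at 8 wk and by SHR replicate 6 at 12 and at 24 wk. Their totals ran from 9489481 to 17889417 counts. A fit with the number as a term can separate it from age only through these libraries. In 2 CVLM libraries, replicate 5 of each strain, the title says 8 wk and the age label says 10 wk, and they were placed by title. Of the marker genes for endothelium and mural cells (pericytes and smooth muscle), Pecam1 has no row in the tables and Acta2 was at 0 in 17 of 46 libraries of the NTS, 16 of the CVLM and 14 of the RVLM, and the others had counts in every library.

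The first comparison was between regions of the same rat. Edn3 and both converting enzymes were higher in the NTS than in either ventrolateral region, and Edn1 was lower there. Levels are given as CPM, counts scaled to a common library size, which are not divided by gene length and so compare a gene between samples but not one gene with another. Differences are log2 fold changes, called where the adjusted p of the edgeR quasi-likelihood test, with the rat as a block, was under 0.05. Each regional difference is the region named first less the one named second, so a positive value means higher in the first. Of 36 tests (6 genes, 3 pairs of regions, 2 strains), 25 were called. In WKY rats, 6 of 6 members were called between the NTS and the CVLM, where 52.5% of 14043 genes were called, with 4 higher in the NTS (26.5% of all genes) and 2 lower (26%). Between the NTS and the RVLM 4 of 6 were called (64.2% of all genes), 3 higher in the NTS (31%) and 1 lower (33.2%). Between the CVLM and the RVLM 2 of 6 were called (41.1%), 1 higher in the CVLM (20%) and 1 lower (21.1%). In SHRs 5 of 6 were called between the NTS and the CVLM (55.9%), 4 higher (29.1%) and 1 lower (26.9%). Between the NTS and the RVLM of SHRs 6 of 6 were called (64.4%), 5 higher and 1 lower (32.2% of all genes each way), and between the CVLM and the RVLM 2 of 6 (44.3%), both lower in the CVLM (23.2%). The median difference of the members, NTS less CVLM, was 0.31 in WKY rats and 0.29 in SHRs, beside 0.00 and 0.01 over all genes. The members were not tested as a set.

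Among the ligands, Edn3 (ENSRNOG00000007477) had the widest regional difference. Its level in the 46 NTS libraries was lowest at 1.66, had a median of 3.26 and was highest at 8.37 CPM. In the CVLM the same values were 0.326, 1.22 and 3.53 CPM, and in the RVLM 0.215, 1.60 and 4.86 CPM. The NTS exceeded the CVLM in 45 of 46 rats, with a median ratio of 2.64, and the RVLM in 40 of 46, with a median ratio of 2.21. The log2 difference between NTS and CVLM was 1.42 (SE 0.21, adjusted p = 5.635e-09) in WKY rats and 1.55 (SE 0.17, adjusted p = 1.542e-13) in SHRs. From NTS to RVLM it was 1.44 (SE 0.21, adjusted p = 2.154e-09) in WKY rats and 0.86 (SE 0.16, adjusted p = 2.317e-06) in SHRs. Between CVLM and RVLM, Edn3 was lower in the CVLM of SHRs, by a log2 difference of -0.69 (SE 0.18, adjusted p = 0.000642), and in WKY rats the difference was 0.03 (adjusted p = 0.942). The difference between the strains in this contrast, -0.72 (SE 0.28), had an unadjusted p of 0.0127 and an adjusted p of 0.441.

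Edn1 (ENSRNOG00000014361), the other ligand and the gene whose upstream bases hold all 3 motifs, went the opposite way. Its NTS levels ran from 0.448 to 5.08 CPM with a median of 1.70. The CVLM ran from 0.793 to 4.89 CPM and the RVLM from 0.749 to 4.69 CPM, both with a median of 2.20. The ranges overlap widely, and the NTS was the higher in 12 of 46 rats against the CVLM and in 12 of 46 against the RVLM. In WKY rats Edn1 was lower in the NTS than in the CVLM by a log2 difference of -0.60 (SE 0.14, adjusted p = 0.000141) and than in the RVLM by -0.59 (SE 0.14, adjusted p = 0.000119). In SHRs the differences were -0.25 (SE 0.11, adjusted p = 0.0452) and -0.32 (SE 0.11, adjusted p = 0.00976). Without the rat as a block these SHR calls were lost, with adjusted p of 0.137 and 0.0659. Most limma voom fits without 1 rat did not make the SHR call against the CVLM either, with adjusted p up to 0.108. Endothelial markers moved the same way: 7 of 7 tested were lower in the NTS in each contrast and strain, and their summed level was 229 to 313 CPM in the NTS and 283 to 408 CPM in the CVLM of WKY rats. This was not particular to endothelium. Of the oligodendrocyte markers 6 of 6 were lower in the NTS in each contrast and strain, and of 7 mural markers 4 to 6 were lower and none higher. Microglia markers went the other way, with 4 or 5 of 5 higher in the NTS. The part of these cell types in the Edn1 difference was not tested.

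The receptors differed in regional pattern. Ednrb (ENSRNOG00000010997), the B receptor, was lowest in the CVLM. Its level was 195 to 321 CPM in the NTS (median 236), 146 to 281 CPM in the CVLM (median 197) and 157 to 314 CPM in the RVLM (median 230). The NTS exceeded the CVLM in 41 of 46 rats, and the CVLM exceeded the RVLM in 6 of 46. The log2 difference from NTS to CVLM was 0.22 (SE 0.05, adjusted p = 8.65e-05) in WKY rats and 0.32 (SE 0.04, adjusted p = 2.001e-11) in SHRs, and from CVLM to RVLM -0.25 (SE 0.05, adjusted p = 1.136e-05) and -0.20 (SE 0.04, adjusted p = 1.161e-05). Of 8 astrocyte markers, 5 were higher and 1 was lower in the NTS than in the CVLM in each strain, with median differences of 0.35 and 0.42. Microglia markers were also higher in the NTS, 5 of 5 in each strain, with medians of 0.26 and 0.31, while 6 of 6 oligodendrocyte markers were lower. The part of these cell types in the Ednrb difference was not tested.

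Ednra (ENSRNOG00000012721), the A receptor, was higher in the CVLM than in the other regions in WKY rats. The level in the CVLM of the 18 WKY rats was lowest at 1.83, had a median of 3.57 and was highest at 5.45 CPM. The RVLM of the same rats ran from 1.09 to 3.44 CPM with a median of 2.08, and the NTS from 1.01 to 5.21 CPM with a median of 2.51. The CVLM exceeded the RVLM in 16 of 18 WKY rats, with a log2 difference of 0.73 (SE 0.16, adjusted p = 5.587e-05), and the NTS was below the CVLM by -0.43 (SE 0.15, adjusted p = 0.0128). In SHRs, the CVLM exceeded the RVLM in 16 of 28 rats, with a log2 difference of 0.14 (adjusted p = 0.408), and the NTS differed from the CVLM by 0.15 (adjusted p = 0.320). The NTS of SHRs was above the RVLM by 0.29 (SE 0.13, adjusted p = 0.0412), a call that limma voom did not make (0.27, adjusted p = 0.0637), and 37 of 46 limma voom fits without 1 rat did not make it either, with adjusted p from 0.0275 to 0.121 over the 46. In WKY rats this difference was 0.30 (SE 0.16, adjusted p = 0.0914). The limma voom fits without 1 rat were split on it: many called it, with adjusted p down to 0.0165, and others did not.

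The converting enzymes resembled each other in regional order. Ece1 (ENSRNOG00000014241) ran from 26.2 to 55.9 CPM in the NTS (median 41.5), from 18.5 to 43.4 CPM in the CVLM (median 31.8) and from 13.3 to 42.7 CPM in the RVLM (median 31.2). The NTS was the higher in 41 of 46 rats in both contrasts. The log2 difference from NTS to CVLM was 0.49 (SE 0.08, adjusted p = 7.781e-08) in WKY rats and 0.35 (SE 0.06, adjusted p = 1.375e-06) in SHRs. Ece2 (ENSRNOG00000001715) had medians of 27.3 CPM in the NTS, 22.2 CPM in the CVLM and 21.7 CPM in the RVLM. Its differences from NTS to CVLM were 0.40 (SE 0.08, adjusted p = 9.058e-06) in WKY rats and 0.26 (SE 0.06, adjusted p = 0.000322) in SHRs. Neither enzyme was called between CVLM and RVLM. The order by region is visible rat by rat in the plot of the 6 genes across regions.

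**Figure D1:**
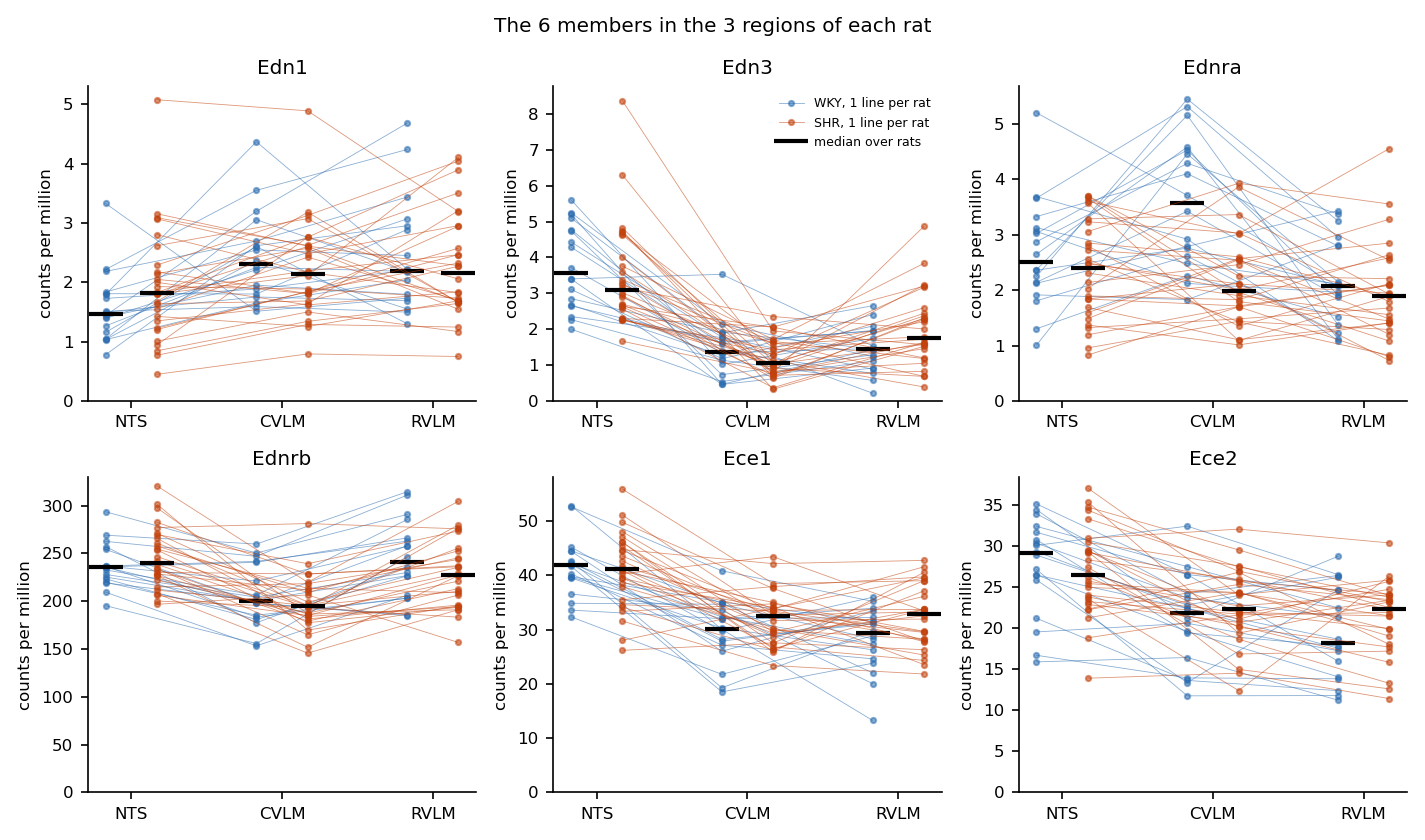
Level of each endothelin system gene (CPM, vertical axis) in the NTS, CVLM and RVLM (horizontal axis), with 1 line per rat. Black bars are at the median of each strain in a region, over 18 WKY or 28 SHR libraries. Edn3, Ece1 and Ece2 are highest in the NTS. Over the 46 libraries of a region, Ednrb is lowest in the CVLM with a median of 197 CPM, and Edn1 is lowest in the NTS with a median of 1.70 CPM.

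The comparison of SHRs with WKY rats at each age asked which members differed between the hypertensive and normotensive strain as hypertension developed. Ednra was lower in the CVLM of SHRs, and this was the main strain difference of the family. Of 90 tests (6 genes, 3 regions, 5 ages), 3 were called, all in the CVLM: Ednra lower at 8 and at 16 wk, and Ece1 higher at 24 wk. Over all genes, the share called in the CVLM was 7.64% at 8 wk (4.47% lower), 3.18% at 10 wk, 2.62% at 12 wk, 2.27% at 16 wk (1.13% lower) and 7.13% at 24 wk (2.21% higher). No member was called in the NTS, where 5.79%, 4.44%, 3.1%, 1.73% and 2.46% of all genes were called in the order of the ages, or in the RVLM, where 9.78%, 2.3%, 1.7%, 1.65% and 2.24% were. In the NTS 2 of 30 tests had an unadjusted p under 0.05 and neither DESeq2 nor limma voom called any. In the RVLM 3 of 30 did, DESeq2 called 1 and limma voom 0.

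In the CVLM at 8 wk, Ednra was at 5.16, 4.46, 4.59, 5.32 and 5.45 CPM in the WKY rats and at 1.83, 2.57, 3.03, 1.72 and 3.93 CPM in the SHRs. Every SHR was below every WKY rat. At 16 wk the WKY rats had 2.62, 4.53 and 4.29 CPM and the SHRs 1.01, 2.60, 2.11, 1.10, 1.79 and 1.70 CPM. Again the groups did not overlap, though the lowest WKY rat and the highest SHR were nearly level. Groups did not overlap for 4.5% of all genes at 8 wk and 5.78% at 16 wk. The log2 fold change was -0.91 (SE 0.26, adjusted p = 0.0217) at 8 wk and -1.17 (SE 0.29, adjusted p = 0.0136) at 16 wk by edgeR's quasi-likelihood test.

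At the other ages Ednra was not called in the CVLM. At 10 wk the WKY rats had 4.10, 3.43, 2.92 and 3.71 CPM and the SHRs 2.55, 1.90, 3.02, 1.35 and 1.43 CPM, a log2 difference of -0.78 (SE 0.27, adjusted p = 0.123). At 12 wk WKY rats had 2.12, 2.48 and 2.79 CPM and SHRs 1.48, 3.37, 3.86, 2.26, 1.70 and 2.46 CPM, and the difference was 0.03 (SE 0.30). At 24 wk WKY rats had 2.76, 2.26 and 1.83 CPM and SHRs 2.01, 1.96, 2.54, 1.44, 2.12 and 1.09 CPM, a difference of -0.34 (SE 0.30, adjusted p = 0.527). The strains overlapped at these ages, and the SD of the 5 age means was 1.10 CPM in WKY rats and 0.398 CPM in SHRs. The counts behind these values were small, 10 to 65 per CVLM library.

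**Figure D2:**
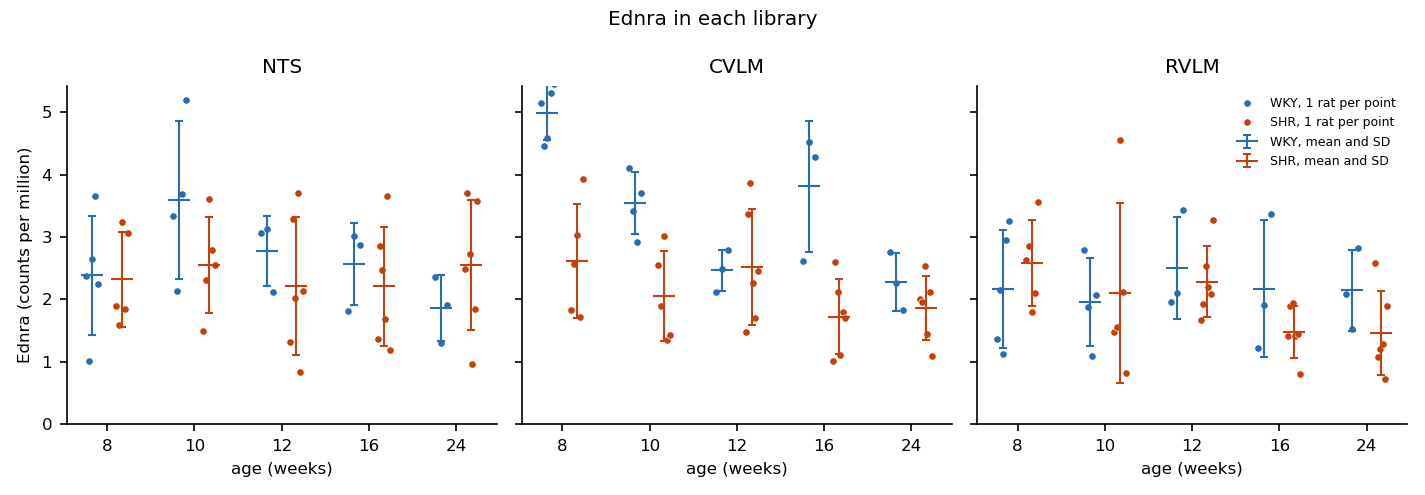
Ednra level (CPM, vertical axis) by age (wk, horizontal axis) and strain in the NTS, CVLM and RVLM, with a point for each rat and the mean with its SD for each group. In the CVLM the SHRs lie below all WKY rats at 8 and 16 wk, and the groups overlap at 10, 12 and 24 wk.

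Averaged over the 5 ages with equal weight, Ednra was at 3.42 CPM in WKY rats and 2.15 CPM in SHRs in the CVLM, a log2 difference of -0.63 (SE 0.13, adjusted p = 0.000224, 95% interval -0.89 to -0.38). It was the 1 member of 6 called in the CVLM, where 12.3% of all genes were called and 7% were called lower. In the NTS and RVLM 0 of 6 were called by edgeR, DESeq2 or limma voom, beside 11.2% and 10.8% of all genes, with 0 and 1 at an unadjusted p under 0.05 in edgeR. Ednra differed by -0.13 (95% interval -0.47 to 0.22) in the NTS and by -0.18 (-0.53 to 0.17) in the RVLM. Tested directly, the strain effect in the NTS less that in the CVLM was 0.58 (SE 0.20, unadjusted p = 0.00425, adjusted p = 0.315), and that in the CVLM less that in the RVLM was -0.59 (SE 0.20, unadjusted p = 0.00485, adjusted p = 0.288). Over the 3 pairs of regions 0 of 18 such tests were called by edgeR or limma voom, with 6 at an unadjusted p under 0.05 in edgeR, beside 0.328%, 1.93% and 0.385% of all genes, so a difference of the Ednra effect between regions was not shown. The test of whether the strain effect changed with age called 0 of 18 by edgeR, DESeq2 or limma voom, with 1 at an unadjusted p under 0.05 in edgeR, beside 0.0145%, 0.0224% and 0.00746% of all genes. For Ednra in the CVLM it gave an unadjusted p of 0.0502 and an adjusted p of 0.416.

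Several measured facts stand beside the Ednra result. The mean difference over ages was called in every fit that left out 1 rat, between -0.68 and -0.59, and without the 10 wk libraries, at -0.58 (adjusted p = 0.00570). The call at 8 wk was lost without WKY replicate 4 or 5 or SHR replicate 1, 2 or 4, with adjusted p from 0.0521 to 0.0912, and with the library number as a term (-1.01, adjusted p = 0.0553). The 2 WKY libraries of number 1 at 8 wk averaged 4.81 CPM and the 3 of number 2 averaged 5.12 CPM. The call at 16 wk was lost without WKY replicate 2 (-1.02, adjusted p = 0.152) or 3 (-1.08, adjusted p = 0.104). Of the mural cell markers 2 of 7 tested were called higher in the CVLM of SHRs and none lower for the mean over ages. Their summed level was 83.8 to 106 CPM in WKY rats and 111 to 145 CPM in SHRs at 8 wk, 105 to 132 CPM and 104 to 131 CPM at 12 wk, and 84.8 to 109 CPM and 106 to 134 CPM at 16 wk. At 10 and 24 wk, where Ednra was not called, the sums were 77.6 to 107 CPM and 84.5 to 146 CPM, and 93.3 to 103 CPM and 113 to 152 CPM. The strains did not overlap in this sum at 24 wk. Of the endothelial markers 0 of 7 were called in the CVLM, with a median difference of -0.00, and their summed level was 283 to 408 CPM in WKY rats and 287 to 403 CPM in SHRs. The summed level of the astrocyte markers in the CVLM was lower in every SHR than in every WKY rat at each age, with 3328 to 5070 CPM in WKY rats and 2598 to 3212 CPM in SHRs at 8 wk, 3923 to 4819 CPM and 2420 to 3511 CPM at 12 wk, and 3428 to 4836 CPM and 2408 to 3165 CPM at 16 wk. Of the 8 astrocyte markers 1 was called lower for the mean over ages and none higher, with a median difference of 0.01. The part of these cell types in the Ednra difference was not tested.

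Ece1 was the one member called higher in SHRs. In the CVLM at 24 wk its level was 18.5, 28.2 and 19.3 CPM in WKY rats and 43.4, 26.2, 33.8, 25.9, 35.0 and 33.2 CPM in SHRs. The groups overlapped, since 1 WKY rat was above 2 SHRs. The log2 difference was 0.55 (SE 0.16, adjusted p = 0.0303). It was lost without WKY replicate 1 (0.47, adjusted p = 0.189) or 3 (0.46, adjusted p = 0.196) or SHR replicate 1, 5 or 6 (adjusted p = 0.0811, 0.0502 and 0.0522). At 8 wk the RVLM levels of Ece1 were 32.2, 22.0, 13.3, 20.0 and 28.3 CPM in WKY rats and 23.6, 29.7, 39.5, 32.5 and 39.7 CPM in SHRs, a log2 difference of 0.50 (SE 0.18, adjusted p = 0.0613), which DESeq2 called (0.49, adjusted p = 0.0441). Its mean over ages differed by 0.15 (95% interval 0.01 to 0.29, adjusted p = 0.182) in the CVLM. Ece2 was not called at any age or region.

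For the ligands no strain difference was called. Edn3 in the RVLM at 8 wk was at 0.571, 0.215, 2.65, 1.95 and 1.24 CPM in WKY rats and at 2.01, 3.83, 1.57, 3.20 and 2.37 CPM in SHRs, a log2 difference of 0.97 (SE 0.46, adjusted p = 0.161). The 2 WKY libraries of number 1 averaged 0.393 CPM and the 3 of number 2 averaged 1.94 CPM, while all SHR libraries of this age carry the number 1. Whether the number moves with Edn3 within an age was not tested. In the CVLM at 12 wk its WKY levels of 1.59, 1.39 and 1.27 CPM lay above all SHR levels, 1.03, 0.326, 0.629, 1.13, 1.02 and 1.03 CPM, but the difference was not called. Groups did not overlap there, in either direction, for 5.29% of all genes. Edn1 in the NTS at 10 wk had a log2 difference of -0.87 (SE 0.38, adjusted p = 0.205), and over all ages 0.20 (95% interval -0.16 to 0.56), which leaves room for a change in either direction.

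Ednrb was below WKY in every SHR in the RVLM at 12 and at 24 wk, without a call. At 12 wk the WKY rats had 246, 257 and 266 CPM and the SHRs 227, 235, 229, 206, 196 and 244 CPM. At 24 wk they had 291, 314 and 311 CPM and 195, 280, 236, 245, 276 and 253 CPM, a log2 difference of -0.30 (SE 0.12, adjusted p = 0.241). Groups did not overlap for 4.19% of all genes at 12 wk and for 9.47% at 24 wk. The summed level of the 8 astrocyte markers in the RVLM did not overlap either, at 4751 to 5280 CPM in WKY rats and 2956 to 4343 CPM in SHRs at 12 wk, and at 4715 to 5138 CPM and 2678 to 3545 CPM at 24 wk. Of the 8 markers 1 was called lower at each of these ages and none higher, with median log2 differences of -0.21 and -0.02, and their part in the Ednrb difference was not tested. Over the ages the RVLM difference was -0.14 (95% interval -0.24 to -0.03, adjusted p = 0.114). Over all 90 tests the groups failed to overlap in 5, which concerned only Ednra, Ednrb and Edn3, and the SHR was the lower in each. Groups failed to overlap for 4.01% to 11.7% of all genes at an age, in either direction. The share in each direction was not recorded, so neither the count nor its direction is read as a result about the members.

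**Figure D3:**
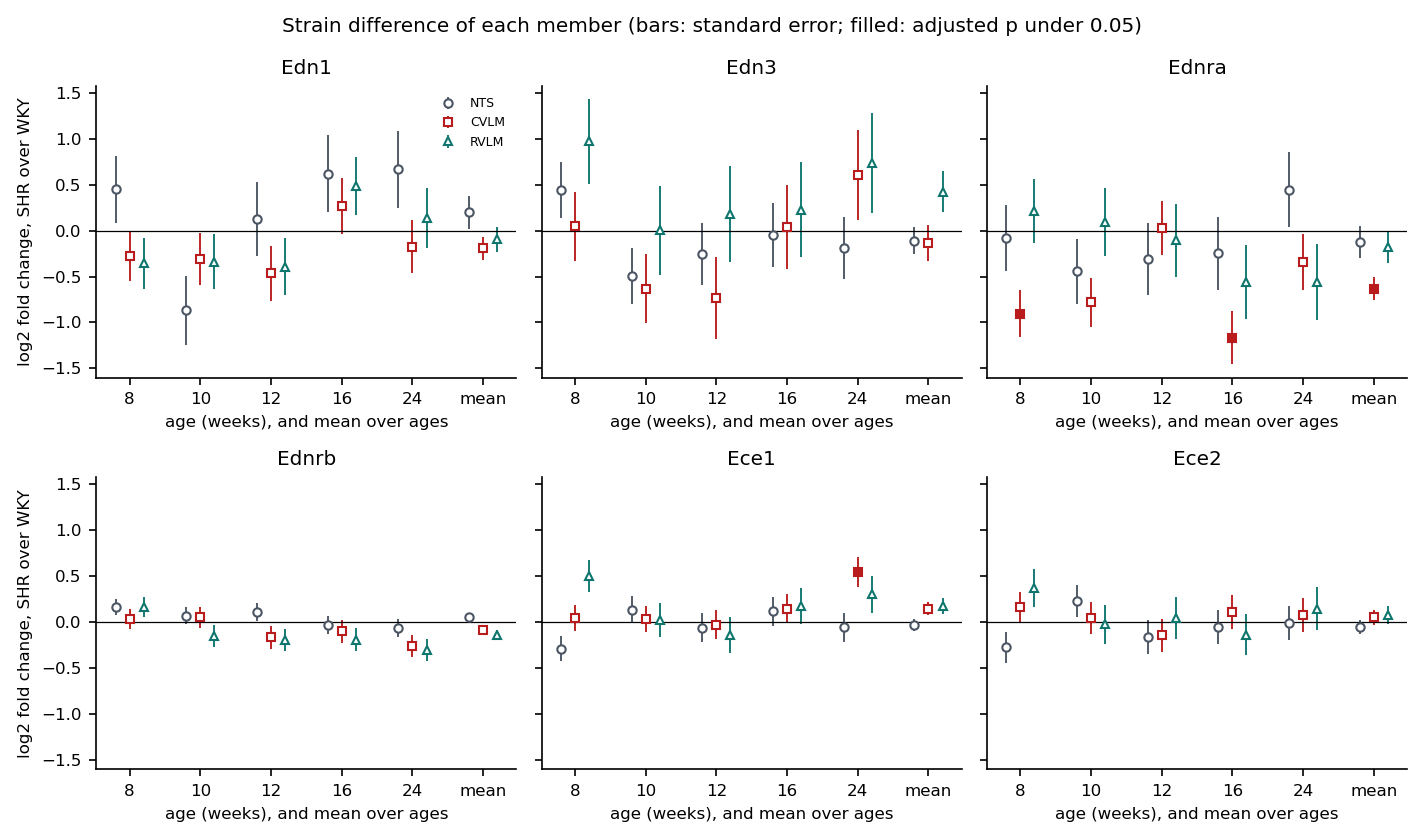
Strain difference of each gene (log2 fold change of SHR over WKY with its SE, vertical axis) at each age and averaged over ages (horizontal axis), in the 3 regions, with filled symbols where the adjusted p was under 0.05. The filled symbols are Ednra in the CVLM at 8 wk, 16 wk and on average, and Ece1 in the CVLM at 24 wk.

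The comparison of ages within a strain asked whether the members changed between 8 and 24 wk. Of 36 tests over ages (6 genes, 3 regions, 2 strains), 7 were called, and 14 had an unadjusted p under 0.05. In the CVLM 3 of 6 were called in WKY rats (Ednra, Ednrb and Ece2) and 2 of 6 in SHRs (Edn1 and Ece2), beside 22.2% and 20% of all genes. In the RVLM 1 of 6 was called in each strain (Ednrb in WKY rats, Edn1 in SHRs), beside 6.79% and 14.1%, and in the NTS none, beside 12.5% and 18.7%. When the 10 wk libraries were left out, an alternative added after the values were seen, 0 of 36 were called by edgeR and 12 had an unadjusted p under 0.05. For Ednra in the CVLM of WKY rats the adjusted p was then 0.0527, and for the other 6 it was 0.173 to 0.929. With the library number as a term 0 of 36 were called and 8 had an unadjusted p under 0.05. The share of all genes called was not recorded for either of these settings. Whether the loss of calls was particular to the members therefore cannot be told. DESeq2 called 10 and limma voom 6 with all libraries.

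Among the groups with a call over ages, the 10 wk mean was the lowest of the 5 in all but Ednra in the CVLM of WKY rats, which was lowest at 24 wk. The others were Ece2 in the CVLM of both strains, Edn1 in the CVLM and RVLM of SHRs, and Ednrb in the CVLM and RVLM of WKY rats. Ednrb averaged 176 CPM at 10 wk in the CVLM (195 to 252 CPM at the other ages) and 210 CPM in the RVLM (219 to 305 CPM). Ece2 in the CVLM was at 14.0, 20.6, 13.4 and 13.7 CPM in WKY rats and 14.5, 12.4, 15.0, 20.3 and 16.9 CPM in SHRs at 10 wk. At 8 wk it averaged 27.1 CPM in the 2 WKY libraries of number 1 and 15.9 CPM in the 3 of number 2. The 1 number-2 library of SHRs at 12 wk was at 19.4 CPM in the CVLM, and in the NTS it had the highest Ece2 of its group, at 35.4 CPM where the others had 21.3 to 25.8 CPM. In the 8 wk WKY libraries of number 1 and of number 2, Edn1 averaged 2.95 and 2.19 CPM in the CVLM, and 4.06 and 2.57 CPM in the RVLM. Ednrb averaged 201 and 192 CPM in the CVLM, and 207 and 227 CPM in the RVLM. Whether the number moves with these genes within an age was not tested. Edn1 in the RVLM of SHRs was at 1.70, 1.25, 1.64, 1.17 and 0.749 CPM at 10 wk and reached 1.68 to 4.11 CPM at 16 wk.

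Between 8 and 24 wk, 3 of 6 members were called in the CVLM of WKY rats, where 13.7% of all genes were called, 9.14% higher and 4.51% lower at 24 wk. Ednra fell, with a log2 difference of -1.07 (SE 0.31, adjusted p = 0.0189), from between 4.46 and 5.45 CPM at 8 wk to 2.76, 2.26 and 1.83 CPM. Ece1 fell by 0.54 on the log2 scale (SE 0.17, adjusted p = 0.0267). Ednrb rose by 0.42 (SE 0.13, adjusted p = 0.0235), from 204, 198, 198, 177 and 200 CPM to 250, 260 and 247 CPM, without overlap. In the other 5 sets of region and strain no member was called by edgeR, though 2 tests had an unadjusted p under 0.05, beside 0.464% and 0.232% of all genes called in the NTS of WKY rats and SHRs, 0.649% in the CVLM of SHRs, and 0.179% and 0.358% in the RVLM. In the RVLM of WKY rats Ednrb was at 230, 185, 186, 236 and 258 CPM at 8 wk and at 291, 314 and 311 CPM at 24 wk, a difference of 0.48 (SE 0.13, adjusted p = 0.0809), which DESeq2 called (adjusted p = 0.0229). All 3 CVLM calls were lost with the library number as a term, with adjusted p of 0.0607 for Ednra, 0.0793 for Ednrb and 0.0934 for Ece1. They also depended on single WKY rats. The Ednra call was lost without 24 wk replicate 2 or 3 (adjusted p = 0.0540 and 0.116), and the Ece1 call without 24 wk replicate 1 or 3 (0.147 and 0.152) or 8 wk replicate 4 or 5 (0.0601 and 0.0569). The Ednrb call was lost without any of the 3 rats of 24 wk or without 8 wk replicate 4, with adjusted p from 0.0612 to 0.0896.

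**Figure D4:**
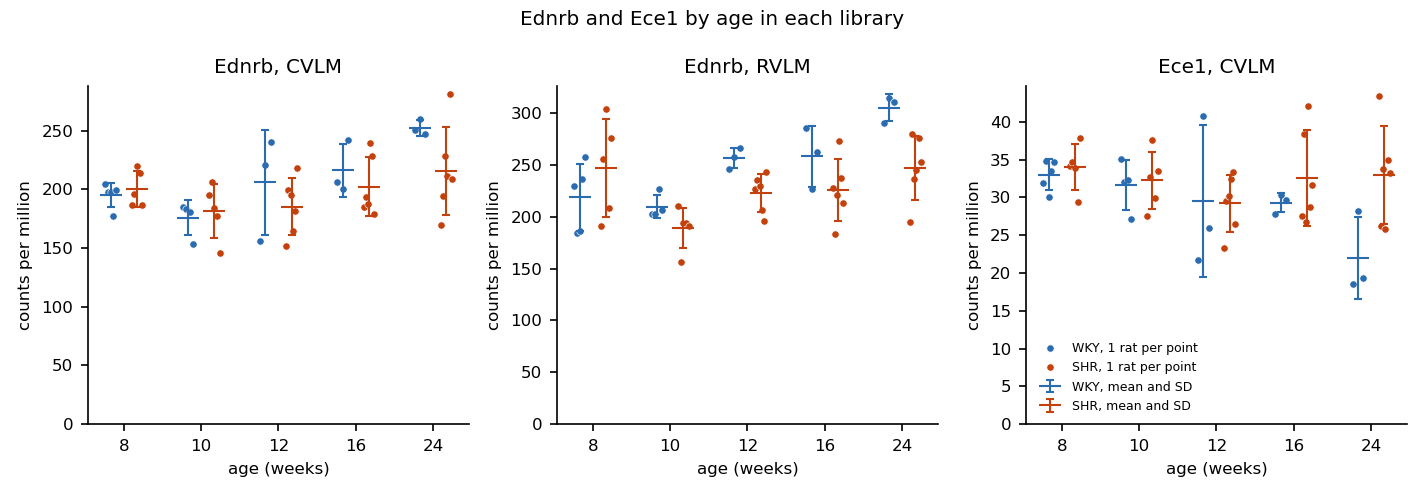
Levels (CPM, vertical axis) of Ednrb in the CVLM, Ednrb in the RVLM and Ece1 in the CVLM by age (wk, horizontal axis) and strain, with a point for each rat and the mean with its SD. Ednrb in WKY rats is highest at 24 wk in both regions, between 247 and 260 CPM in the CVLM and between 291 and 314 CPM in the RVLM.

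How the members varied together was described over all libraries of the 3 regions, after the mean of each group of region, strain and age was taken off the log2 CPM. The libraries share rats, depth and dissection, and no test was made. Ece1 and Ece2 had a correlation of 0.42, and the other 14 pairs of members lay between -0.18 and 0.17. Neither ligand varied with a receptor more than that. Of 13116 genes, those most like Ednrb were Gja1 (r = 0.66), the astrocyte gap junction gene, Fads1 (0.65) and Zbtb20 (0.62), and its median correlation with 8 astrocyte markers, of which Gja1 is one, was 0.467, beside 0.418 with 5 microglia markers. For Ece1 the nearest were Abr (0.82), Polr2a (0.82) and Sez6l (0.81), and for Ece2 Coro1c (0.75), Atp6v0a1 (0.71) and Ubqln4 (0.69). The 3 genes with the lowest counts had weaker neighbours, with Slf2 (0.47) nearest to Ednra, Ctsh (0.46) to Edn3 and Pdia6 (0.42) to Edn1, values too low in sparse counts to be read as findings. The median correlation of Edn1 was 0.220 with mural markers and 0.148 with endothelial markers, and that of Ednra was 0.077 and 0.275.

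The wider pathway was compared between strains in the same fits. It held 27 gene entries tested in each region, which encode related peptidases, G proteins, effectors and vascular partners. Gnas was entered under both ENSRNOG00000025889 and ENSRNOG00000047374. Their mean strain differences in the RVLM were 0.33 and -0.11, neither called. Averaged over ages, 1 of 27 was called in the NTS, lower in SHRs, beside 11.2% of all genes. In the CVLM edgeR called 0 of 27, with 1 at an unadjusted p under 0.05, beside 12.3%, and in the RVLM 1 of 27, lower, beside 10.8%. The gene was Itpr3, an inositol trisphosphate receptor that releases calcium from internal stores, in both. It differed by -1.23 (SE 0.20, adjusted p = 8.515e-06) in the NTS, by -0.50 (SE 0.12, adjusted p = 0.00362) in the RVLM and by -0.43 (adjusted p = 0.0562) in the CVLM. At single ages 1 of 27 was called lower in the NTS at 8 wk, beside 5.79% of all genes called in either direction. In the NTS at 10 wk 1 was called higher and 1 lower, beside 4.44%, and in the RVLM at 8 wk 2 lower, beside 9.78%. None was called at the other ages of these regions, beside 1.65% to 3.1% of all genes, or in the CVLM, beside 2.27% to 7.64%. Between regions the same entries went both ways, with 7 of 27 higher and 7 lower in the NTS than in the CVLM in each strain. The shares of all genes were 26.5% higher and 26% lower in WKY rats, and 29.1% and 26.9% in SHRs.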

How the data were processed

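RNA from tissue punches of frozen brainstem was sequenced, and the authors deposited 1 table per region of expected counts per gene from RSEM, mapped to the rat genome rn6 and not normalized. Their methods name ComBat_seq, and whether that adjustment is in the tables is not stated. As deposited, values with decimals made up 5.02% of the NTS table, 4.95% of the CVLM table and 4.88% of the RVLM table, and all were rounded here. Genes below 3.5 in every library of a region after DESeq2's rlog were dropped there, as in the study, leaving 13793, 13408 and 13411 genes. One edgeR quasi-likelihood model per region held the 10 groups of strain and age (TMM, Benjamini-Hochberg over all genes of the region). Regions were compared in 1 model of all libraries with the rat as a block, over the 14043 genes kept in at least 1 region. Printed CPM used TMM factors over all libraries of the 3 regions, while tests within a region used factors of that region. R 4.3.3, edgeR 4.0.16, DESeq2 1.42.0 and limma 3.58.1 were used, and the fits were tested on simulated data.

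The members, the pathway list and the marker lists were chosen with earlier results of these data known. Every member is named, as are the pathway genes called for the mean strain difference, and the 3 genes with the highest correlation to each member. Samples were grouped by title. Rats are separate animals, and 270 pairs of libraries within groups held no repeat (lowest chi-square per gene 4.81). Regions of 1 rat are paired by label. Rats of both strains share replicate numbers, which paired nothing: correlations of same-numbered rats ran from -0.30 to 0.52. Promoter bases are from RefSeq on GRCr8 and no coordinates of rn6 are given.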

Additional observations from a re-analysis of the deposited data

Results flagged for a closer look

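Within groups of 4 to 6 libraries, 12 of 126 combinations of member and group held a library whose gap to the nearest other passed Dixon's 95% limit. Chance flags about 1 in 20. No explanation was tested for any of them.

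For Edn3, SHR replicate 3 at 8 wk stood at 8.37 CPM in the NTS (others 2.30 to 3.76), WKY replicate 5 at 8 wk at 5.25 CPM in the NTS (2.27 to 2.85), SHR replicate 1 at 24 wk at 4.86 CPM in the RVLM (1.20 to 2.29) and WKY replicate 3 at 10 wk at 0.885 CPM in the RVLM (1.43 to 1.53). For Ednrb, WKY replicate 4 stood low in the CVLM at 8 wk, at 177 CPM (198 to 204), and another rat, replicate 4 at 10 wk, at 153 CPM (181 to 185), while WKY replicate 3 at 10 wk stood high in the RVLM, at 226 CPM (203 to 206). For Ece2, SHR replicate 1 at 8 wk was at 13.3 CPM in the RVLM (21.5 to 23.5), WKY replicate 2 at 10 wk at 20.6 CPM in the CVLM (13.4 to 14.0) and SHR replicate 6 at 12 wk, the 1 library of number 2 in its group, at 35.4 CPM in the NTS (21.3 to 25.8). For Edn1, the same WKY replicate 2 at 10 wk was at 2.60 CPM in the CVLM (1.51 to 1.65) and SHR replicate 6 at 16 wk at 3.16 CPM in the NTS (1.80 to 2.29).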

How the results depend on the processing

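Of 252 single values of members, 39 were called and none of these changed sign under an alternative, while 48 of those not called did. The 3 strain calls in the CVLM became 1 when number-2 libraries outside 10 wk were left out, 0 when each age was fitted on its own and 0 with a stricter call (adjusted p at most 0.01 and log2 difference at least 1). The 1 call for the mean over ages in the CVLM became 0 with the stricter call. In the RVLM the 0 strain calls became 1 with DESeq2 and the 0 calls for the mean became 1 without those number-2 libraries (Edn3, 0.77, adjusted p = 0.0395). That fit kept only 2 WKY rats of 8 wk, which had the lowest Edn3 of their group in the RVLM. The 7 age calls became 3 without the filter on low counts and 0 with the library number as a term, without the 10 wk libraries or with the stricter call. The 25 region calls became 3 with the stricter call. The causes were not tested. Leaving out 1 rat at a time gave 2 to 4 strain calls in the CVLM, 0 in the NTS and 0 to 1 in the RVLM, 1 to 2, 0 and 0 to 1 for the mean, 0 for the interaction, 5 to 9 for age, 23 to 26 for regions and 0 for regions in the strain effect. The last 2 used limma voom, added after the data were seen, and the edgeR version was not run. The replicate block, made of the numbers shared by rats of different strains, gave 3 strain calls in the CVLM and 0 in the NTS and RVLM. It gave 8 age calls, and Ednra in the CVLM was at -0.95, -1.05 and -0.59 at 8 wk, 16 wk and on average. Without the rat as the replicate block, there were 22 region calls. The small counts of Edn1, Edn3 and Ednra limit their precision.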

Other observations

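Edn2, a further endothelin ligand, did not pass the filter in any region and was not tested. It was above 0 in 2 of 46 NTS libraries (2 counts in all, 0.00409 CPM over their summed counts), in 4 of 46 CVLM libraries (5 counts, 0.00995 CPM) and in 32 of 46 RVLM libraries (72 counts, 0.138 CPM, at most 7 counts in a library). In the RVLM, 14 of 18 WKY libraries held 40 counts and 18 of 28 SHR libraries held 32.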
